A study of Mus musculus with 18 samples.

Results

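The AP-1 and EGR transcription factors examined here were the 10 genes Egr1, Egr2, Egr3, Fos, Fosb, Fosl2, Jun, Junb, Jund and Atf3. They were chosen by name as members of these families, with earlier results of these data known. The E. coli and IFN-γ count files list 55029 genes and the IL-4 count files 54232. The RNA came from eosinophils of the peritoneal cavity of C57BL/6 mice that carry an Il5 transgene, which gives these mice very many eosinophils, and all groups, controls included, shared this background. The cells were enriched by removing Thy1.2- and B220-bearing cells with beads and were then cultured for 18 h. The 18 libraries formed 6 groups of 3: unstimulated libraries a to c, heat-inactivated E. coli, IFN-γ at 50 ng/ml, IFN-γ with E. coli, unstimulated libraries d to f, and IL-4 at 100 ng/ml. Files of unstimulated a to c had the same layout as those of E. coli and IFN-γ, and files of unstimulated d to f the same layout as those of IL-4, so E. coli and IFN-γ were set against a to c and IL-4 against d to f. The comparison asked how the same factors responded to a bacterial, an interferon and a type 2 cytokine stimulus, and whether IFN-γ altered the response to bacteria. The study calls its replicates biological, but neither the labels nor the methods say whether they came from separate mice or cultures, so p-values measure only the spread between these libraries.

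AP-1 is a dimer of basic leucine zipper proteins, in which a Fos family protein (Fos, Fosb, Fosl2) pairs with a Jun family protein (Jun, Junb, Jund) to bind short palindromic DNA elements, and Atf3, a stress-induced relative, can pair with Jun proteins. The EGR proteins are zinc finger factors that bind GC-rich elements and induce their own corepressors, the Nab proteins. Many of these genes are immediate early genes: MAP kinase cascades switch them on within minutes without new protein synthesis and their transcripts decay fast, so that a measurement late in a culture reads a sustained level rather than the first pulse.

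Total gene counts ranged from 1523808 to 2734041 in the 12 E. coli and IFN-γ layout libraries and from 3625036 to 6482289 in the 6 IL-4 layout libraries. In every library of the first layout the highest gene count lay between 4089 and 4095, while the highest count of any of the 10 genes there was 1687. Unstimulated e stood apart: its counts differed from those of d and f by 22.0 to 23.7 (chi-square divided by the number of genes), whereas d and f differed by 7.86. The summed level of 8 eosinophil markers was 1932 to 3111 normalized CPM in the first layout and 2664 to 3663 in the second, where normalized CPM are counts scaled to a common library total after TMM normalization. Of these markers Epx, the eosinophil peroxidase gene, was at or under 3 counts in every library of the 3 groups with E. coli or IFN-γ. Markers of other cells were present too: 8 macrophage markers summed to 722 to 797 normalized CPM in unstimulated a to c, 523 to 788 with E. coli, 958 to 1063 with IFN-γ, 798 to 1000 with both, 1380 to 1746 in unstimulated d to f and 1095 to 1200 with IL-4. Of 6 T cell markers, Cd3e, Cd3g, Cd4 and Cd8a stayed at or under 3 counts in every library. Lck did not in every library of unstimulated a to c, nor Trac in every IL-4 library. The study checked the purity of its eosinophils by flow cytometry and describes the contaminating cells as mostly lymphocytes. Sums of marker RNA do not give shares of cells. Because these are bulk samples, a lower level from fewer cells of a type and one from less RNA per cell cannot be told apart.

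Promoter sequences are shown for 4 members that moved in different ways at 18 h, namely Egr2 and Atf3, higher with E. coli, IFN-γ and both together, Fos, lower with all of these, and Jun, lower with E. coli and higher with IFN-γ. Each run is the 250 bases before the RefSeq start site (assembly GRCm38.p6), 5′ to 3′ on the gene's strand, at chr10:67537619-67537868 on the plus strand for Egr2, chr12:85473640-85473889 on the plus strand for Fos, chr4:95052223-95052472 on the minus strand for Jun and chr1:191183334-191183583 on the minus strand for Atf3. Capitals mark the matches found on either strand.
Egr2: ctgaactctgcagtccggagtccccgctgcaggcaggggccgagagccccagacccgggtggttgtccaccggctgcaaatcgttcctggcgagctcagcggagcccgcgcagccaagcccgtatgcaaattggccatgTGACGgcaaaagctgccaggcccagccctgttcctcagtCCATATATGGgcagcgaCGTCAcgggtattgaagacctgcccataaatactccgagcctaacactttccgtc
Atf3: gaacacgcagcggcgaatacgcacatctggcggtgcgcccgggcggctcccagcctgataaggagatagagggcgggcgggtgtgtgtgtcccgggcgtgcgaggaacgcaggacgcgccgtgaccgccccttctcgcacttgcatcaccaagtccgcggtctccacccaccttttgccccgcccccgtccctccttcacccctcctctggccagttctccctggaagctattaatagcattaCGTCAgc
Fos: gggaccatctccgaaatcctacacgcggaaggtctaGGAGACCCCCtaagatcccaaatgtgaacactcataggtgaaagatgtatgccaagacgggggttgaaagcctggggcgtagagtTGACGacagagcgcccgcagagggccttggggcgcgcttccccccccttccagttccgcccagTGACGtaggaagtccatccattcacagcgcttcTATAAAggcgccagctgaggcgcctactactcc
Jun: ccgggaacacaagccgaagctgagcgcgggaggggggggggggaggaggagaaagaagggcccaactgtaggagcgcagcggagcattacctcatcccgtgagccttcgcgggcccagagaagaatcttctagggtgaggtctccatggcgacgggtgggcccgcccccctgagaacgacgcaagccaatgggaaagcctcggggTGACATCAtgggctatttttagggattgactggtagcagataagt
The searched elements were the AP-1 site TGANTCA, the cAMP response element TGACGTCA, the related Jun and ATF element TGACNTCA (which includes the former), its short core TGACG, the EGR site GCGNGGGCG, the interferon GAS element TTCNNNGAA, the TATA box TATAAA, and the CArG box of serum response factor and the NF-kB site by their usual consensus. TGACNTCA and TGACG were added after the sequences had been seen. Egr2 held a CArG box 72 to 63 bases before the start, an element in 1.47% of 32851 promoters of the same length, and 2 TGACG cores, which 17.8% of promoters hold at least once. Atf3 held 1 TGACG core 7 to 3 bases before the start. Fos held 2 such cores, an NF-kB match 214 to 205 bases before the start (7.25% of promoters hold one) and a TATA box 33 to 28 bases before it (12.4%). Jun held a TGACNTCA match 45 to 38 bases before the start (7.49%). No TGANTCA, TGACGTCA or GAS match lay in the windows of the 8 members with a sequence (6.75%, 1.55% and 7.02% of all promoters hold one). The windows of Fosl2 and Jund lie 671 and 1210 bases from the principal start of the gene, so they do not cover the region next to it. A match describes letters in this window and was not measured as a bound site.

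At 18 h the family split. Egr2, Fosl2 and Atf3 were higher with each of E. coli, IFN-γ and the combination, Egr1 and Fos were lower with each, Jun fell with E. coli and rose with IFN-γ and with both, Junb fell with E. coli and rose with both, and Jund rose with IFN-γ and with both. With E. coli, 7 of the 9 genes tested passed edgeR's quasi-likelihood test at an adjusted p under 0.05 (Benjamini-Hochberg over all 9883 genes), 3 higher and 4 lower, where 30.2% of all genes did, 13.5% higher and 16.7% lower. IFN-γ moved 8 of 9, 6 higher and 2 lower (31.6% of all genes, 15.6% higher and 16.0% lower), and the combination moved 9 of 9, 7 higher and 2 lower (49.0% of all genes, 23.9% higher and 25.2% lower). The median log2 fold change of the 9 genes was 0.27, 0.75 and 1.07 in turn, beside -0.02, -0.03 and -0.04 over all genes, and these comparisons share their unstimulated libraries. Fosb was too low for the test in this layout.

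**Figure D1:**
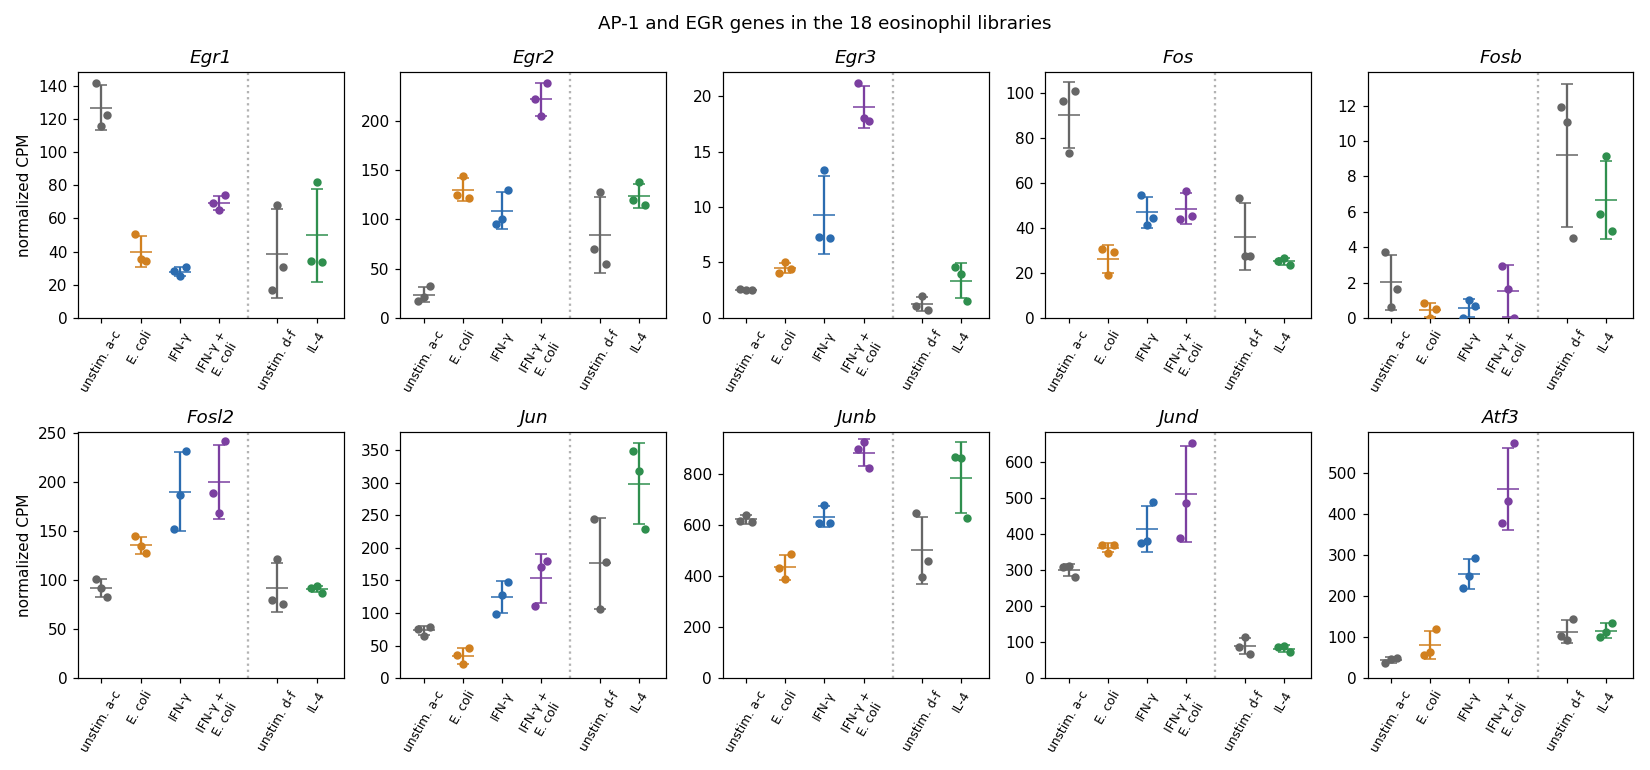
Normalized CPM (vertical axes, from 0) of the 10 genes in the 18 libraries; points are libraries, bars the mean ± SD of 3, and the dotted line parts the 2 file layouts, between which levels are not comparable. Egr1 and Fos sit lower in all E. coli and IFN-γ libraries than in unstimulated a to c, Egr2 and Atf3 higher.

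Egr1 (ENSMUSG00000038418), a zinc finger factor induced by growth factors and stress, lies on chromosome 18 from 34859823 to 34864984, plus strand (GRCm38). It measured 142, 116 and 123 normalized CPM in unstimulated a, b and c, 50.6, 35.4 and 34.1 with E. coli, 28.0, 25.1 and 30.7 with IFN-γ, and 69.4, 65.2 and 73.9 with both. None of the 4 groups overlapped another. The mean of 127 ± 13.5 (SD, n = 3) in unstimulated cells was 3.17-fold above E. coli (log2 fold change -1.67, SE 0.15, adjusted p = 9.96e-08), 4.57-fold above IFN-γ (-2.19, SE 0.16, adjusted p = 6.52e-09) and 1.83-fold above both together (-0.88, SE 0.15, adjusted p = 6.45e-05). The combination, although containing both agents that lowered it, left Egr1 higher than E. coli alone (0.79, SE 0.16, adjusted p = 0.000699) and higher than IFN-γ alone (1.32, SE 0.17, adjusted p = 3.72e-05). IFN-γ alone was below E. coli alone (-0.53, SE 0.17, adjusted p = 0.0324), a call lost without E. coli replicate 1 (-0.32, adjusted p = 0.214), IFN-γ replicate 1 (-0.53, adjusted p = 0.0768) or IFN-γ replicate 2 (-0.44, adjusted p = 0.140). With all 18 libraries in a single fit, Egr1 with both agents no longer passed against unstimulated cells or against E. coli.

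Egr2 (ENSMUSG00000037868; chromosome 10, 67535475 to 67542188, plus strand), a zinc finger factor known from myelin formation and from lymphocyte restraint, moved the other way. Levels were 17.1, 21.5 and 32.2 normalized CPM unstimulated, 124, 143 and 122 with E. coli, 95.2, 100 and 130 with IFN-γ, and 222, 204 and 238 with both. Every stimulated library exceeded every unstimulated one, and the E. coli and IFN-γ libraries overlapped. Egr2 rose 5.49-fold with E. coli (log2 2.46, SE 0.18, adjusted p = 1.09e-08), 4.56-fold with IFN-γ (2.19, SE 0.19, adjusted p = 4.80e-08) and 9.33-fold with both (3.22, SE 0.18, adjusted p = 5.99e-11). Between E. coli alone and IFN-γ alone the difference was -0.27 (SE 0.16, adjusted p = 0.228), and both together exceeded each of them (0.76, adjusted p = 0.000630, against E. coli and 1.03, adjusted p = 0.000181, against IFN-γ).

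Egr3 (ENSMUSG00000033730; chromosome 14, 70077203 to 70082614, plus strand), often a partner of Egr2 in activated lymphocytes, rested on few reads, 4 to 33 counts a library. It measured 2.61, 2.54 and 2.48 normalized CPM unstimulated, 4.08, 5.02 and 4.44 with E. coli, 7.28, 13.3 and 7.19 with IFN-γ, and 21.2, 18.1 and 17.8 with both. The 4 groups did not overlap and stood in that order. IFN-γ raised it 3.64-fold (log2 1.86, SE 0.36, adjusted p = 0.000617) and the combination 7.30-fold (2.87, SE 0.33, adjusted p = 8.34e-07). E. coli alone gave 0.82 (SE 0.39, adjusted p = 0.122). The combination was above E. coli (2.05, SE 0.29, adjusted p = 2.02e-05). It was also above IFN-γ (1.00, SE 0.27, adjusted p = 0.0206), but not without IFN-γ replicate 1 (0.85, adjusted p = 0.107) or 3 (0.86, adjusted p = 0.0792) or without combination replicate 1 (0.93, adjusted p = 0.0686) or 2 (1.04, adjusted p = 0.0547). IFN-γ was above E. coli (1.04, SE 0.32, adjusted p = 0.0200), a call lost without E. coli replicate 1 (0.97, adjusted p = 0.0700) or IFN-γ replicate 2 (0.67, adjusted p = 0.221).

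Fos (ENSMUSG00000021250; chromosome 12, 85473890 to 85477273, plus strand), the founding Fos family gene and the standard immediate early marker, fell with all 3 treatments. It measured 96.5, 73.5 and 101 normalized CPM unstimulated, 30.6, 19.1 and 29.1 with E. coli, 54.9, 41.5 and 44.5 with IFN-γ, and 43.8, 56.4 and 45.5 with both. Every unstimulated library was above every stimulated one and E. coli was lowest, while IFN-γ and the combination overlapped. E. coli lowered Fos 3.51-fold (log2 -1.81, SE 0.18, adjusted p = 5.04e-07), IFN-γ 1.94-fold (-0.96, SE 0.18, adjusted p = 0.000392) and both 1.86-fold (-0.90, SE 0.18, adjusted p = 0.000384). The combination was above E. coli (0.91, SE 0.20, adjusted p = 0.00155) and differed from IFN-γ by 0.06 (SE 0.19, adjusted p = 0.891). IFN-γ was above E. coli (0.86, SE 0.20, adjusted p = 0.00291).

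Fosb (ENSMUSG00000003545; chromosome 7, 19302696 to 19310051, minus strand), a close paralog of Fos, was near the limit of detection in this layout. Its counts were 10, 1 and 4 in unstimulated a, b and c, 2, 0 and 1 with E. coli, 0, 2 and 1 with IFN-γ, and 4, 3 and 0 with both. All groups overlapped unstimulated cells and no fold change is given. Fosl2 (ENSMUSG00000029135; chromosome 5, 32135801 to 32157842, plus strand), a Fos family member without the strong activation domain of Fos, measured 101, 91.9 and 82.6 normalized CPM unstimulated, 144, 135 and 127 with E. coli, 152, 187 and 232 with IFN-γ, and 188, 169 and 242 with both. Unstimulated cells were lowest without overlap, and the IFN-γ and combined groups overlapped. It rose 1.47-fold with E. coli (log2 0.56, SE 0.15, adjusted p = 0.00993), 2.06-fold with IFN-γ (1.04, SE 0.16, adjusted p = 4.28e-05) and 2.17-fold with both (1.12, SE 0.16, adjusted p = 9.79e-06). The combination differed from IFN-γ by 0.07 (SE 0.15, adjusted p = 0.824). It was above E. coli (0.56, adjusted p = 0.00806), except without combination replicate 3 (0.39, adjusted p = 0.0533). IFN-γ was above E. coli (0.48, adjusted p = 0.0226), except without E. coli replicate 2 (0.48, adjusted p = 0.0666) or 3 (0.44, adjusted p = 0.0652) or IFN-γ replicate 3 (0.32, adjusted p = 0.166).

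Jun (ENSMUSG00000052684; chromosome 4, 95049034 to 95052222, minus strand), the most strongly activating Jun protein, went down with bacteria and up with interferon. It measured 76.0, 64.6 and 78.9 normalized CPM unstimulated, 35.1, 21.7 and 45.9 with E. coli, 98.0, 128 and 147 with IFN-γ, and 110, 171 and 179 with both. E. coli lay below and IFN-γ and the combination above unstimulated cells without overlap, and these last groups overlapped each other. E. coli lowered Jun 2.20-fold (log2 -1.14, SE 0.23, adjusted p = 0.000898). IFN-γ raised it 1.68-fold (0.75, SE 0.21, adjusted p = 0.0102), just missing the threshold without IFN-γ replicate 3 (0.64, adjusted p = 0.0507), and both raised it 2.09-fold (1.07, SE 0.21, adjusted p = 0.000317). The combination exceeded E. coli 4.60-fold (2.20, SE 0.22, adjusted p = 3.34e-07) and differed from IFN-γ by 0.32 (SE 0.20, adjusted p = 0.367). IFN-γ exceeded E. coli 3.70-fold (1.89, SE 0.22, adjusted p = 2.96e-06).

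Junb (ENSMUSG00000052837; chromosome 8, 84974484 to 84978718, minus strand), which often opposes Jun in proliferation, fell with bacteria, rose with the combination and did not pass with interferon alone. It measured 613, 639 and 610 normalized CPM unstimulated, 430, 386 and 485 with E. coli, 607, 678 and 609 with IFN-γ, and 898, 924 and 822 with both. E. coli was lowest and the combination highest, both clear of the other groups, while IFN-γ overlapped unstimulated cells. E. coli lowered Junb 1.43-fold (log2 -0.52, SE 0.11, adjusted p = 0.00127), IFN-γ gave 0.03 (SE 0.11, adjusted p = 0.886) and both raised it 1.42-fold (0.51, SE 0.11, adjusted p = 0.000773). The combination exceeded IFN-γ (0.48, SE 0.11, adjusted p = 0.00627) and E. coli (1.02, SE 0.11, adjusted p = 6.69e-07), and IFN-γ exceeded E. coli (0.54, SE 0.11, adjusted p = 0.000918). The summed level of 6 B cell markers moved in the same order as Jun and Junb, at 183 to 311 normalized CPM unstimulated, 75.1 to 154 with E. coli, 272 to 336 with IFN-γ and 324 to 456 with both, and the macrophage sum given above was likewise higher with IFN-γ than unstimulated. Of the 8 macrophage markers, Gata6 went against that sum: it was at or under 3 counts in every IFN-γ library, but not in every library of unstimulated a to c. The part of either cell type in these changes was not tested.

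Jund (ENSMUSG00000071076; chromosome 8, 70698949 to 70700616, plus strand), the constitutive Jun family member, moved by 1.70-fold at most. Levels were 309, 311 and 282 normalized CPM unstimulated, 370, 348 and 369 with E. coli, 374, 380 and 489 with IFN-γ, and 391, 488 and 655 with both. All stimulated libraries were above the unstimulated ones. E. coli gave 0.27 on the log2 scale (SE 0.15, adjusted p = 0.189). The combination raised Jund 1.70-fold (0.77, SE 0.15, adjusted p = 0.000345). IFN-γ raised it 1.38-fold (0.46, SE 0.15, adjusted p = 0.0252), a call lost without unstimulated a (0.49, adjusted p = 0.0590), unstimulated c (0.42, adjusted p = 0.0807) or IFN-γ replicate 3 (0.35, adjusted p = 0.128) and with library totals in place of TMM. The combination was above E. coli (0.50, adjusted p = 0.0153), but not without E. coli replicate 2 (0.47, adjusted p = 0.0591) or combination replicate 3 (0.28, adjusted p = 0.127) and not with library totals. It differed from IFN-γ by 0.30 (SE 0.15, adjusted p = 0.213), and IFN-γ from E. coli by 0.19 (SE 0.15, adjusted p = 0.380). Jun, Junb and Jund share exon positions with genes of the opposite strand (Junos, Prdx2 and Gm11175), and whether counting used strand is not given in the sources used here.

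Atf3 (ENSMUSG00000026628; chromosome 1, 191170296 to 191218039, minus strand), a stress-induced factor known to restrain inflammatory genes in macrophages, rose in steps. It measured 36.5, 47.5 and 49.6 normalized CPM unstimulated, 57.5, 64.5 and 120 with E. coli, 219, 250 and 293 with IFN-γ, and 378, 432 and 573 with both. The 4 groups did not overlap. IFN-γ raised it 5.73-fold (log2 2.52, SE 0.23, adjusted p = 1.41e-07) and both 10.4-fold (3.38, SE 0.23, adjusted p = 9.17e-10). E. coli raised it 1.80-fold (0.85, SE 0.24, adjusted p = 0.0115), a call lost without E. coli replicate 3, the highest of its group (0.48, adjusted p = 0.0805), or without unstimulated a (0.71, adjusted p = 0.0750). The combination exceeded E. coli 5.79-fold (2.53, SE 0.22, adjusted p = 3.64e-08). It exceeded IFN-γ 1.82-fold (0.86, SE 0.20, adjusted p = 0.00796), though not past the threshold without IFN-γ replicate 1 (0.76, adjusted p = 0.0553), and IFN-γ exceeded E. coli 3.19-fold (1.67, SE 0.22, adjusted p = 8.17e-06). Neutrophil markers, 8 in all, summed to 12.7 to 19.8 normalized CPM unstimulated and 46.1 to 129, 58.4 to 71.3 and 49.7 to 101 with E. coli, IFN-γ and both. Of their granule genes, Mpo, Elane, Ngp and Ltf were at or under 3 counts in all 12 libraries. Camp was so in every library of the other groups, but not in every E. coli library. Mast cell markers, 6 in all, summed to 7.43 to 9.69 unstimulated, 6.69 to 34.6 with E. coli, 13.1 to 30.2 with IFN-γ and 36.5 to 72.3 with both. Of these, Mcpt4 was at or under 3 counts in all 12 libraries. Fcer1a was so in every library of the other groups, but not in every library of the combination. The part of these cells in any change was not tested.

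**Figure D2:**
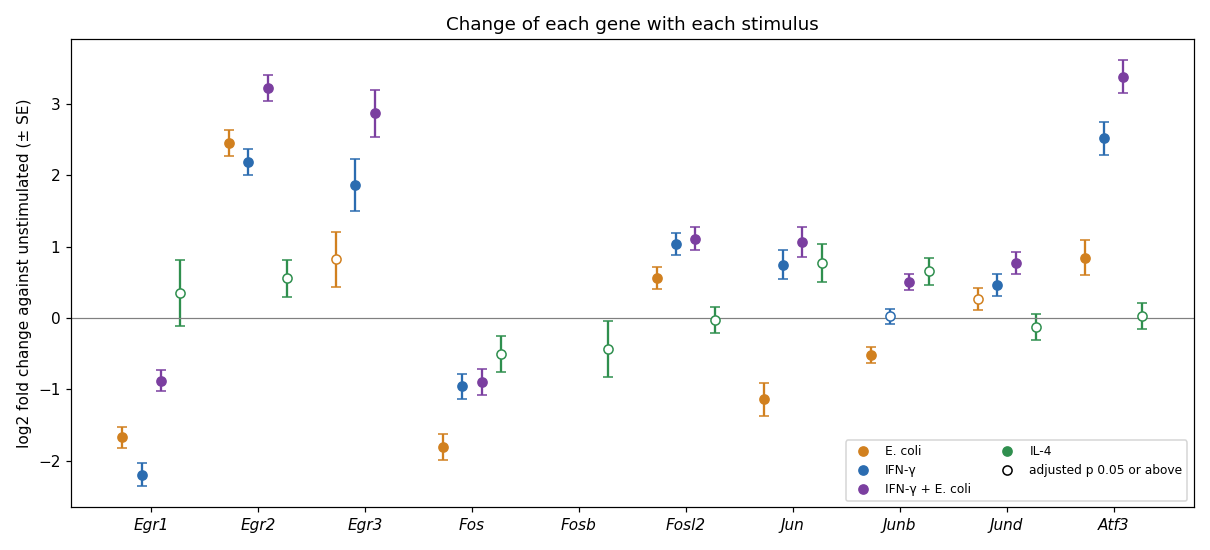
Log2 fold change against the unstimulated libraries of the same layout (vertical axis, ± SE) for each gene and stimulus; filled points passed an adjusted p of 0.05, open ones did not. The combination's change reached 3.38 for Atf3 and 3.22 for Egr2, and no IL-4 point is filled.

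Set against each other directly, the combination was higher than E. coli alone for 9 of 9 tested genes (32.8% of all genes were called, 17.5% higher and 15.3% lower) and higher than IFN-γ alone for 5 of 9, Egr1, Egr2, Egr3, Junb and Atf3 (12.2% of all genes, 6.25% higher and 5.98% lower), with none lower in either at edgeR's adjusted p. An unadjusted p under 0.05, which every gene called at the adjusted p also passes, added no gene to these 9 and 5. At that threshold 42.6% and 25.6% of all genes passed in either direction. IFN-γ alone was above E. coli alone for 6 of 9, Egr3, Fos, Fosl2, Jun, Junb and Atf3, and below it for Egr1 (25.5% of all genes, 14.1% higher and 11.5% lower). Without IFN-γ replicate 1, 3 genes were called higher with the combination than with IFN-γ. These comparisons share libraries and are not independent of those with unstimulated cells.

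Whether IFN-γ altered the response to E. coli was tested as an interaction, the log2 change with E. coli in the presence of IFN-γ minus that in its absence. It passed for 5 of 9 genes, 4 positive and 1 negative, where 4.62% of all genes did, 2.58% positive and 2.04% negative. Members and tests were chosen with earlier results of these data known, so the share of all genes is given as a description only. Egr1 had an interaction of 2.98 (SE 0.23, adjusted p = 7.07e-07): E. coli changed it by -1.67 without IFN-γ and by 1.32 with it, so the direction turned. For Fos the interaction was 1.87 (SE 0.27, adjusted p = 0.000466), from -1.81 without IFN-γ to 0.06 with it. Jun had 1.45 (SE 0.31, adjusted p = 0.00916), from -1.14 to 0.32, a call lost with all 18 libraries in a single fit (adjusted p = 0.0520). Junb turned from -0.52 to 0.48, an interaction of 1.00 (SE 0.15, adjusted p = 0.000772). Egr2 alone was negative at -1.42 (SE 0.24, adjusted p = 0.00167): each agent raised it, the single changes summed to 4.65, and both together gave 3.22. For the other tested genes the interaction did not pass, at 0.18 for Egr3 (SE 0.52, adjusted p = 0.922), -0.49 for Fosl2 (SE 0.22, adjusted p = 0.255), 0.03 for Jund (SE 0.21, adjusted p = 0.963) and 0.01 for Atf3 (SE 0.33, adjusted p = 0.991). In every fit that left out a library the same count of 5 genes passed.

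**Figure D3:**
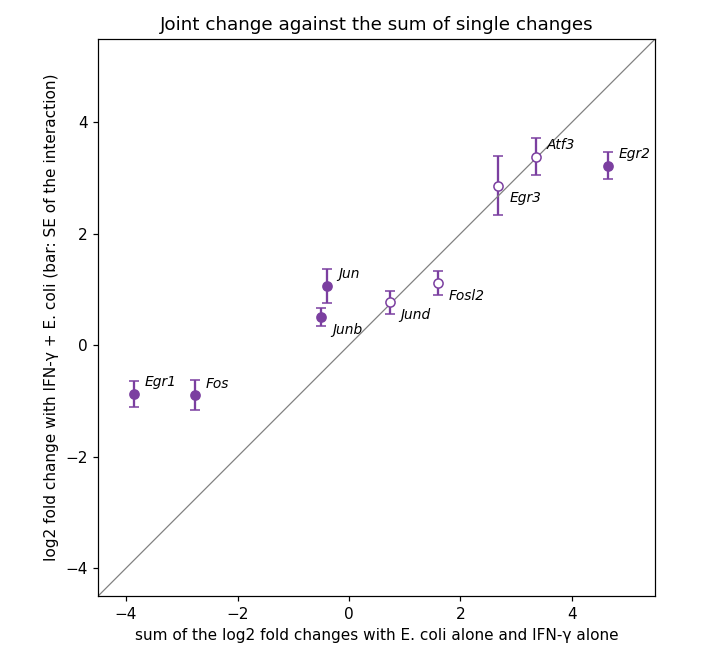
Log2 fold change with IFN-γ + E. coli (vertical axis) against the sum of the changes with E. coli alone and IFN-γ alone (horizontal axis); bars are the SE of the interaction, filled points passed an adjusted p of 0.05, and the line marks equality. Egr1, Fos, Jun and Junb lie above the line, Egr2 below it, and Atf3 on it at 3.37 and 3.38.

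IL-4 was measured in the other file layout, in which resting levels were not the same: unstimulated d, e and f measured 16.7, 68.4 and 31.0 normalized CPM of Egr1, and layout, library preparation and processing cannot be told apart from these differences. With IL-4, none of the 9 genes tested passed edgeR's adjusted p of 0.05, where 10.3% of all genes did, 5.97% higher and 4.35% lower. At an unadjusted p under 0.05 there were 2, Jun and Junb, where 25.0% of all genes passed, and DESeq2 called 2, where it called 11.9% of all genes. Jun measured 245, 106 and 178 normalized CPM in unstimulated d, e and f and 349, 317 and 229 in the IL-4 libraries (log2 fold change 0.77, SE 0.26, adjusted p = 0.0967). Junb measured 648, 395 and 457 against 867, 862 and 626, a change of 0.65 (SE 0.19, adjusted p = 0.0568). For both genes the groups overlapped. Without unstimulated d both passed (Jun 1.07, adjusted p = 0.0185, and Junb 0.88, adjusted p = 0.00972), and without unstimulated e Junb passed (0.51, adjusted p = 0.0441).

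Egr2 measured 69.7, 128 and 54.4 normalized CPM in unstimulated d, e and f and 119, 138 and 115 with IL-4 (log2 0.56, SE 0.26, adjusted p = 0.216). Unstimulated e was high here, and without it the change was 1.01 (adjusted p = 0.000210). Egr1 measured 34.1, 82.2 and 33.4 with IL-4, so that 1 library of each group was high (0.35, SE 0.47, adjusted p = 0.681, and 1.05, adjusted p = 0.0702, without unstimulated e). Fos was 53.3, 27.5 and 27.4 unstimulated and 25.3, 26.8 and 23.3 with IL-4, below without overlap but short of the threshold (-0.50, SE 0.25, adjusted p = 0.253). Fosb, measurable in this layout, was 11.9, 11.1 and 4.53 unstimulated and 5.90, 9.14 and 4.93 with IL-4 (-0.43, SE 0.39, adjusted p = 0.534). Fosl2, Jund and Atf3 gave -0.02 (SE 0.18), -0.13 (SE 0.19) and 0.03 (SE 0.18), with adjusted p of 0.955, 0.724 and 0.946. Egr3 had 4, 12 and 4 counts unstimulated and 24, 24 and 6 with IL-4, too few for the test. The macrophage sum was lower with IL-4 than in unstimulated d to f without overlap, and the B cell sum was 153 to 233 unstimulated and 228 to 357 with IL-4. Their part in these values was not tested.

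The difference between responses was tested in a fit of all 18 libraries, each response taken against its own unstimulated libraries. All 10 genes passed the filter of this fit, but Egr3 did so through the E. coli and IFN-γ layout and Fosb through the IL-4 layout. Each was too low for the test in the other layout. The IL-4 response lay above the E. coli response for Egr1 (2.00, SE 0.49, adjusted p = 0.00379), Fos (1.30, SE 0.32, adjusted p = 0.00405), Jun (1.88, SE 0.38, adjusted p = 0.000791) and Junb (1.15, SE 0.22, adjusted p = 0.000397) and below it for Egr2 (-1.92, SE 0.34, adjusted p = 0.000214), 5 of 10 genes where 28.1% of all genes passed, 14.4% higher and 13.7% lower. Against the IFN-γ response 5 of 10 passed (27.8% of all genes, 13.0% higher and 14.7% lower): IL-4 was above for Egr1 (2.51, adjusted p = 0.000860) and below for Egr2 (-1.67, adjusted p = 0.00100), Fosl2 (-1.10, adjusted p = 0.00174) and Atf3 (-2.53, adjusted p = 5.32e-06). The fifth, Junb at 0.59 (adjusted p = 0.0464), lost its call in 10 of the fits that left out a library, with adjusted p up to 0.116. Against the combined response 5 of 10 passed (39.2% of all genes, 18.5% higher and 20.7% lower), all lower with IL-4: Egr2 (-2.72, adjusted p = 1.74e-06), Fosl2 (-1.20, adjusted p = 0.000511), Jund (-0.95, adjusted p = 0.00394), Atf3 (-3.41, adjusted p = 3.83e-08) and Egr3 (-1.57, adjusted p = 0.0496). Egr3 entered only through the layout in which it was high with IFN-γ and both agents, so its call is not read as a difference between responses. It lost that call in 10 of the fits that left out a library, with adjusted p up to 0.292. The call was also lost with library totals in place of TMM, without a low-count filter and by DESeq2. Jund lost its call with library totals. These differences share the IL-4 libraries and, in part, the unstimulated ones.

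Other genes of the pathway were taken from lists named by function. Of 19 tested relatives (further AP-1, ATF, CREB and Maf genes), E. coli raised 6 and lowered 1, IFN-γ raised 9 and lowered 2, and the combination raised 12 and lowered 3, with list medians of 0.17, 0.35 and 0.53 on the log2 scale beside -0.02, -0.03 and -0.04 over all genes. Over all genes 13.5% rose and 16.7% fell with E. coli, 15.6% and 16.0% with IFN-γ, and 23.9% and 25.2% with both, and the counts of this and the following lists are read against these shares. Maff, a small Maf protein without an activation domain, rose by 3.71 (SE 0.35), 3.86 (SE 0.35) and 5.95 (SE 0.29) in turn. Fosl1, a Fos family gene that the choice of members did not include, rose by 2.68 (SE 0.34), 2.59 (SE 0.36) and 4.89 (SE 0.28), with adjusted p of 7.93e-06, 1.94e-05 and 9.17e-11. With IL-4, 2 of 19 rose and none fell (edgeR, where 10.3% of all genes passed), Jdp2 (1.23, SE 0.13), a repressor that pairs with Jun, and Batf3 (1.18, SE 0.19), a Jun partner in dendritic cells. In the interaction Jdp2 was positive (0.67, adjusted p = 0.0419) and Maff negative (-1.62, adjusted p = 0.0421).

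Nab2, the corepressor that EGR proteins induce, rose with E. coli (1.66, SE 0.23), IFN-γ (2.82, SE 0.22) and both (3.05, SE 0.22), and its interaction was negative (-1.43, SE 0.29, adjusted p = 0.00730), the sign seen for Egr2. Nab1 rose with E. coli (0.45) and with both (0.49), and with IL-4 Nab2 gave 0.11 and Nab1 0.07, neither past the threshold. Of the 6 serum response factor genes, Elk3, a repressive partner of that factor, fell with E. coli, IFN-γ and both (-1.19, -1.72 and -2.17), as did the coactivator Mrtfa (-0.66, -0.74 and -1.35), while Srf rose with E. coli (0.41) and fell with IFN-γ and both (-0.38 and -0.53), and Elk4 rose with IFN-γ and both (0.61 and 0.75). In the MAP kinase cascade, 20 genes tested, 5 rose and 3 fell with E. coli, 6 and 3 with IFN-γ, and 8 and 4 with both, while 30.2%, 31.6% and 49.0% of all genes passed in either direction. Map2k1, which encodes the kinase MEK1, rose by 1.05 with IFN-γ and 1.67 with both, and Mapk14, which encodes p38α, fell by 1.66 with both. Of 7 phosphatase and feedback genes, 4, 4 and 5 rose, Dusp5 among them (1.53, 1.39 and 1.72), and Dusp1, a nuclear MAP kinase phosphatase, was the 1 that fell each time.

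Among 20 other immediate early genes E. coli raised 4 and lowered 8, IFN-γ raised 7 and lowered 5, and both raised 10 and lowered 5. Over all genes, too, more fell than rose with E. coli (1649 against 1337), and the difference between stimuli was not tested for the list. Ptgs2, which encodes cyclooxygenase-2, rose by 3.08 (SE 0.20), 2.66 (SE 0.20) and 5.01 (SE 0.21). Ier2, Btg2, Klf2, Rhob and Dusp1 fell with all 3 treatments, the direction of Egr1 and Fos. The interaction passed for 6 of the 20, positive for Ier2, Btg2, Zfp36, Dusp1 (1.65, SE 0.27, adjusted p = 0.00122) and Gadd45b (1.19, SE 0.31, adjusted p = 0.0319) and negative for Klf2. With IL-4, 5 rose, among them Ptgs2 (1.04, SE 0.19) and Gadd45b (0.96, SE 0.24), and Dusp1 fell (-0.93, SE 0.25), where 5.97% of all genes rose and 4.35% fell. Several of the listed genes, Fosl1, Jdp2, Nab2, Elk3, Mrtfa, Dusp1 and Dusp5 among them, overlap genes of the opposite strand.

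**Figure D4:**
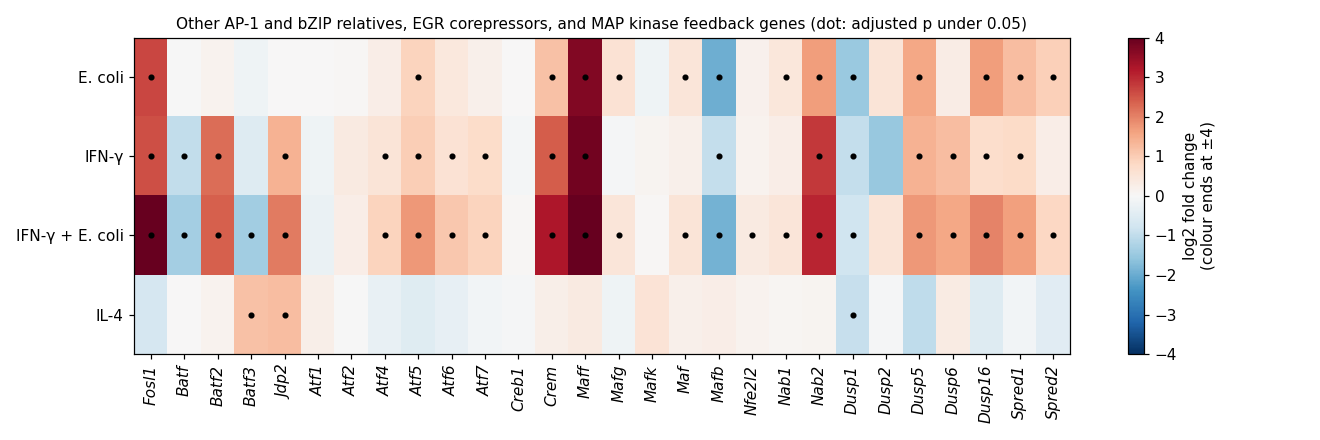
Log2 fold change (colour, ends at ±4) of other AP-1 and bZIP relatives, EGR corepressors and MAP kinase feedback genes (columns) with each stimulus against its unstimulated libraries (rows); a dot marks an adjusted p under 0.05. Maff and Fosl1 are the deepest red, at 5.95 and 4.89 with the combination, and the IL-4 row holds dots at Batf3, Jdp2 and Dusp1.

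The genes whose pattern over the 12 libraries of the first layout lay closest to each member were ranked by Pearson's r of log2 CPM over 9245 genes, as a description in which the points share their groups. Closest to Egr1 were Srsf5 (0.858), Dennd1a (0.854) and Mapre2 (0.853), the lowest best match of any member. Egr2 had Slc7a11 (0.991), Txnrd1 (0.990) and Cxcl3 (0.988), and Egr3 had Jmjd6 (0.982), Rhoh (0.980) and Trib3 (0.978). Fos had Ly86 (0.934), Pdxk (0.926) and Pcyox1 (0.921), and Fosl2 had Caprin1 (0.968), Msn (0.965) and Sav1 (0.960). Jun had Marco (0.976), Calhm6 (0.969) and Gprc5b (0.961), Junb had Ttc39c (0.974), Isg20 (0.970) and Plgrkt (0.952), and Jund had Mknk2 (0.964), Rac1 (0.960) and Ywhah (0.943). Atf3 had Plin2 (0.996), Hilpda (0.989) and Nos2 (0.988). Within the family over the same 12 libraries, Atf3 and Egr3 correlated at 0.935, Jun and Junb at 0.888, Fosl2 and Jund at 0.882 and Egr1 and Fos at 0.713, while Egr2 correlated with Fos at -0.69 and with Egr1 at -0.59.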

How the data were processed

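The deposited values are whole-number counts per Ensembl gene without normalization by the authors, 1 file for each of the 18 libraries. Whether those of the first layout count reads or molecules is not given in the sources used here, and the highest count of a gene lay between 4089 and 4095 in each of those 12 libraries. According to the study's methods, CEL-Seq2 libraries were prepared from purified RNA, reads were mapped to GRCm38 (Ensembl 97) with TopHat2 2.1.0, and uniquely mapped reads were counted with HTSeq 0.6.1 in union mode. The submitters' processing notes also name fastp 0.20.1 and STAR 2.7.2a, and the labels name both a CEL-Seq run and an RNA-seq experiment. Which libraries belong to which is not given in the sources used here. Rows that name no gene, 21.1% to 39.4% of counts in the first layout for the no-feature and ambiguous rows together, were left out.

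Counts were tested with edgeR 4.0.16 (R 4.3.3), with filterByExpr, TMM, a quasi-likelihood fit and Benjamini-Hochberg adjustment. A fit of 12 libraries (9883 genes) served the E. coli and IFN-γ comparisons, a fit of 6 (10556 genes) IL-4, and a fit of all 18 (10671 genes) the differences between responses. SE is the log2 fold change divided by the square root of F. The test of E. coli against unstimulated a to c and that of IL-4 against unstimulated d to f were tried on simulated counts. The interaction and the fit of all 18 libraries were not simulated. Depth gives 3 counts a level of 1.10 to 1.97 CPM in the first layout and 0.463 to 0.828 in the second, a limit that covers counting error only. Gene positions came from GENCODE M21 and promoters from RefSeq, with an entry for 8 members.

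Members, lists and tests were chosen with earlier results of these data known. Named genes were all members, up to 2 called, non-overlapping genes of at least 5 CPM with the largest change per list and comparison, and the 3 genes closest in pattern. Srf, Elk4, Nab1 when not among these, Ier2, Btg2, Klf2, Rhob and Zfp36 were named after their values were seen. Alternatives were other scaling, filters, DESeq2 1.42.0, a 2-fold minimum, other sets of libraries, a replicate block and leaving out each library. A correction of counts for molecular identifier collisions, which assumes that the first layout counts molecules, was added after seeing the data.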

Additional observations from a re-analysis of the deposited data

Results flagged for a closer look

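For 5 genes the response to E. coli differed with and without IFN-γ by a test of the difference itself (edgeR interaction). The change with IFN-γ minus the change without it was 2.98 on the log2 scale for Egr1 (adjusted p = 7.07e-07), 1.87 for Fos (adjusted p = 0.000466), 1.45 for Jun (adjusted p = 0.00916), 1.00 for Junb (adjusted p = 0.000772) and -1.42 for Egr2 (adjusted p = 0.00167). Groups of 3 libraries are too small for an outlier test.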

How the results depend on the processing

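Over the 10 genes, 58 of 102 results kept their side of the threshold under all alternatives, with no called direction reversed. Results that never passed count among these even where their sign changed. Of 1723 alternative values 93 lost a call, 36 gained one and 2 reversed, and 49 that never passed changed sign. Both reversals came with all 6 unstimulated libraries as one group, which mixes the layouts: Atf3 with E. coli (-0.27, adjusted p = 0.687) and Jun with IFN-γ (-0.27, adjusted p = 0.687). That setting also ended the calls of Egr1, Egr2 and Fosl2 with E. coli, Egr2 and Fos with IFN-γ, and Egr1, Fos and Jun with both. The collision correction was run only for the comparisons within the first layout, and there it changed no call of a member. The differences between the IL-4 response and the other responses were not rerun with it. Library totals in place of TMM ended the calls of Jund with IFN-γ, of Fosl2 and Jund for both against E. coli, of Fosl2 for IFN-γ against E. coli, and of Egr3 and Jund for the IL-4 against the combined response. DESeq2 ended those of Egr3 for both against IFN-γ, of Egr1 and Egr3 for IFN-γ against E. coli, and of Egr3 for the IL-4 against the combined response, which was also lost without a low-count filter, for causes that were not tested. Depth limits Egr3 and Fosb most.

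With a change of 2-fold or more required, members called numbered 4 with E. coli, 5 with IFN-γ, 5 with both, 3 for both against IFN-γ, 4 for both against E. coli and 3 for IFN-γ against E. coli. Genes called overall were then 1023, 1187, 2210, 404, 1325 and 1027 in the same order, 245 for the interaction, 478 for IL-4, and 1787, 1789 and 2728 for the IL-4 response against the E. coli, IFN-γ and combined responses. Members called with IL-4 numbered 3 without a low-count filter, 1 with at least 10 counts in every library, 2 by DESeq2, 3 with all 18 libraries in one fit and 4 with all 6 unstimulated libraries as one group, against 0 in the fit reported. All genes called with IL-4 were 1634 without the filter, 1892 in the 18-library fit and 1662 with the 6 unstimulated libraries as one group, against 1089.

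Leaving out each library gave 3 to 5 members for both against IFN-γ (lowest without IFN-γ replicate 1) and 0 to 2 with IL-4 (2 without unstimulated d or e). Over all genes it gave 740 to 1122 for both against IFN-γ, against 1209, with 740 without IFN-γ replicate 1 and 773 without combination replicate 2. The interaction gave 266 to 562, against 457, with 266 without unstimulated a, 286 and 270 without E. coli replicates 1 and 2, and 294 without combination replicate 2. IL-4 gave 483 to 1394, with 483, 495 and 515 without IL-4 replicates 1, 2 and 3.

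Deviations of same-numbered stimulated libraries from their group means correlated at r from -0.03 to 0.36. The mean r was 0.05 for E. coli and IFN-γ, 0.12 for E. coli and the combination, and 0.19 for IFN-γ and the combination. Between libraries of different number r ran from -0.41 to 0.28. Whether the numbers mark pairs was not tested, and the fits reported do not treat them as pairs. With a replicate block over the 9 stimulated libraries, both against IFN-γ kept 5 members called and gave 1430 genes, both against E. coli 9 and 3447, and IFN-γ against E. coli 7 and 2750. Unstimulated libraries carry letters, so no block was possible there.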
